A study of Homo sapiens with 61 samples.

Results

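The genes described here make aminoacyl-tRNAs: 39 genes of the 58440 genes in the count tables, of which 20 encode cytosolic aminoacyl-tRNA synthetases or their subunits, 16 encode mitochondrial synthetases and 3 encode scaffold proteins (AIMP1, AIMP2 and EEF1E1). They were chosen by name from GENCODE 29 symbols by a rule that uses no expression value, and every listed gene was found in both count tables and passed the filter on low counts in both experiments. A symbol ending in 2 marks the mitochondrial enzymes, except AIMP2, which was kept with the scaffolds. GARS and KARS each encode both the cytosolic and the mitochondrial form of their enzyme and were counted as cytosolic. The symbols are those of GENCODE 29, and most cytosolic genes now carry a 1 at the end (CARS is now CARS1).

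RNA-seq had been done on human neurons made from WTC11, an induced pluripotent stem cell line, by forced expression of the transcription factor NGN2. In experiment 1, with doxycycline-driven NGN2, the lines were WT, the single knockouts LZK KO and DLK KO, and a DLK LZK double KO line (called double KO below), each untreated (DMSO vehicle) or given vincristine, with 4 libraries in each of the 8 groups. In experiment 2 the neurons carried CRISPR interference machinery, which represses a gene without cutting it, and a lentiviral Control gRNA (scrambled), ATF2 gRNA or JUN gRNA, again untreated or given vincristine, with 5 libraries in each group except 4 in ATF2 gRNA vincristine. Vincristine, which blocks microtubule assembly, was given at 5 nM for 16 hours from day 14 in both experiments. DLK (MAP3K12) and LZK (MAP3K13) are related stress kinases upstream of JUN, and ATF2 is a transcription factor that can pair with JUN. Each knockout genotype was 1 line, so a knockout and other properties of its line cannot be told apart, and nothing in the labels says that libraries of a group came from separate differentiations, so p-values measure the spread between these libraries.

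An aminoacyl-tRNA synthetase joins an amino acid to the matching tRNA, and the charged tRNA then brings that amino acid to the ribosome. Several cytosolic enzymes sit in the multisynthetase complex, which the 3 scaffolds hold together, while mitochondria use a separate set of enzymes encoded in the nucleus. Many cytosolic synthetase genes are known targets of ATF4, the transcription factor of the integrated stress response. That response starts when an eIF2 kinase slows protein synthesis while translation of ATF4 mRNA rises. Missense changes in several of these genes, GARS and YARS among them, are known causes of inherited neuropathy.

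The libraries of experiment 1 held 8410729 to 14647819 counts and those of experiment 2 held 38925807 to 88392414, and levels were compared only within an experiment. MAP3K12 averaged 26.2 ± 2.48 CPM (the usual count unit corrected for library depth, with totals scaled by edgeR's TMM factors; SD, n = 4) in untreated DLK KO and 90.7 ± 2.22 in untreated WT. MAP3K13 averaged 31.8 ± 1.95 CPM in untreated LZK KO and 98.8 ± 1.92 in untreated WT. ATF2 was at 0.525 ± 0.294 CPM in untreated ATF2 gRNA neurons and 129 ± 18.6 in the Control gRNA neurons (n = 5 each), and JUN at 2.87 ± 0.447 CPM in untreated JUN gRNA neurons and 88.5 ± 6.97 in the Control gRNA neurons. The 8 neuronal markers summed to 6100 to 9647 CPM over all libraries, although TUBB3 was low (5.51 to 45.9 CPM). They were not level between groups. In Control gRNA neurons they summed to 8911 to 9503 CPM untreated and 7134 to 7596 treated, without overlap. In WT they summed to 7875 to 8437 CPM untreated and 7485 to 8045 treated, with overlap, and in untreated DLK KO to 6100 to 6835. The astrocyte and microglial markers stayed at or under 1.56 CPM each. The 3 pluripotency markers summed to 2.10 to 2.76 CPM in untreated WT, 6.22 to 9.92 in DLK KO and 12.0 to 18.0 in LZK KO. In untreated double KO they summed to 51.5 to 57.9 CPM, mostly LIN28A. The 3 oligodendrocyte-lineage markers, mostly MBP, summed to 21.2 to 24.5 CPM in untreated WT, 36.5 to 42.6 in LZK KO and 13.0 to 15.2 in double KO. The 5 progenitor and dividing-cell markers, mostly NES, summed to 732 to 773 CPM in untreated WT and 920 to 1946 in vincristine WT, and to 1310 to 1400 and 2430 to 2526 in the Control gRNA groups. The 3 peripheral-type neuron markers, mostly POU4F1, went from 425 to 458 CPM to 110 to 215 CPM in WT and from 481 to 500.5 CPM to 194 to 218 CPM in Control gRNA neurons. In double KO the progenitor markers summed to 119.5 to 129 CPM and the peripheral-type markers to 364 to 396 CPM over both groups. The part of these markers in the results was not tested, and in bulk RNA fewer cells of a type and less RNA per cell cannot be told apart. WT vincristine replicate 4 stood apart from its group, with a chi-square per degree of freedom of 33.3 to 49.1 against the other 3 libraries, which differed among themselves by 4.09 to 7.85. Several results that rest on it are given with and without it, and the others with it only. WT untreated replicate 4 was the lowest of its group for 29 of the 39 members and the highest for 2. Its chi-square per degree of freedom against the rest of its group was 3.61 to 7.83, and theirs was 2.63 to 5.67. It enters every WT effect and every untreated comparison with WT.

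Per exon length, the cytosolic enzymes were the more abundant class in untreated neurons. The median of the 20 cytosolic genes was 19.8 RPKM (CPM divided by the exon length in kilobases) in WT and that of the 16 mitochondrial genes was 5.17, and in Control gRNA neurons the medians were 40.1 and 6.655. SARS, the serine enzyme, was the highest member in both, at 73.5 ± 3.66 RPKM in WT and 131 ± 3.65 in Control gRNA. EPRS, which charges both glutamate and proline, was next in WT at 38.8 ± 2.69 RPKM, and GARS, the glycine enzyme, was within its spread at 35.6 ± 2.72. RARS2, the mitochondrial arginine enzyme, was the highest mitochondrial gene at 23.8 ± 2.00 RPKM in WT, in place 9 of all 39, and SARS2 and PARS2 were the lowest of all at 1.38 ± 0.231 and 1.31 ± 0.246. SARS2 shares 46.2% of its exon bases with another gene on its strand, so its value is uncertain. Summed over each class, the cytosolic genes gave 453 to 504 RPKM in the 4 untreated WT libraries and 707 to 816 in the vincristine libraries. The mitochondrial genes summed to 95.8 to 105 RPKM and 93.6 to 104 in the same libraries. The cytosolic sums therefore did not overlap between the 2 groups while the mitochondrial sums did.

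In WT neurons, vincristine raised the mRNA of 12 of the 20 cytosolic synthetase genes. At an adjusted p under 0.05 (edgeR's quasi-likelihood test, adjusted by Benjamini-Hochberg over all genes tested, which is what called means here), 12 members rose and 5 fell of 39, beside 15.7% of all genes called higher and 14.5% called lower. All 12 that rose were cytosolic, and their log2 fold changes ran from 0.25 (LARS) to 1.495 (CARS). The median log2 fold change was 0.36 over the 20 cytosolic genes, 0.00 over the 16 mitochondrial genes and -0.67 over the scaffolds, while that of all genes was -2.81e-05. Without WT vincristine replicate 4, 10 members rose and 7 fell: LARS and NARS were no longer called (0.14 and 0.11), and RARS2 and IARS2 were called lower. Without WT vincristine replicate 2, 14 members rose, 2 of them mitochondrial. Without WT untreated replicate 4, 11 members rose and 5 fell.

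CARS, the cysteine enzyme (chr11:3000922-3057613, GRCh38), changed most. In untreated WT its libraries held 82.0, 74.7, 82.0 and 77.9 CPM, and in vincristine WT 228.5, 211, 233 and 220 CPM. Every treated library lay above every untreated one, a log2 difference of 1.495 ± 0.07 (SE; adjusted p = 1.49e-19). The untreated Control gRNA libraries held 216, 206, 189, 190 and 208 CPM and the vincristine ones 253, 267, 258, 248.9 and 250 CPM, a log2 difference of 0.34 ± 0.04 (adjusted p = 5.44e-09). These groups did not overlap either, but the fold was smaller in experiment 2.

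GARS, the glycine enzyme (chr7:30594681-30634033), held 155, 150, 155 and 131 CPM in untreated WT and 356, 342, 343 and 437 CPM after vincristine. The highest treated value was replicate 4, and without it the log2 fold change of 1.32 ± 0.07 became 1.23 ± 0.06. The untreated Control gRNA libraries held 440, 415, 385, 402 and 410.5 CPM and the treated ones 577, 558.5, 547, 551 and 542.5 CPM, a rise of 0.44 ± 0.04 on the log2 scale with no overlap.

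SARS (chr1:109213918-109238169) held 293, 288, 285 and 261 CPM in untreated WT and 559, 554, 554 and 641 CPM after vincristine, a log2 fold change of 1.03 ± 0.06. Its Control gRNA libraries held 516, 511, 480, 502 and 501 CPM untreated and 701, 730, 706, 693 and 699 CPM treated (0.49 ± 0.03). TARS, the threonine enzyme (chr5:33440696-33469539), held 115, 119, 118 and 103 CPM in untreated WT and 232, 242, 236 and 330 CPM after vincristine, so that replicate 4 again stood above the other 3 libraries. Its log2 fold change was 1.19 ± 0.08 with that library and 1.06 ± 0.07 without it. With Control gRNA, TARS went from 272, 257, 251, 248.9 and 262 CPM to 332.5, 319, 322, 322 and 319 CPM (0.32 ± 0.04). Treated and untreated libraries were apart for both genes in both experiments.

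WARS, the tryptophan enzyme (chr14:100333788-100376805), and IARS, the isoleucine enzyme (chr9:92210207-92293756), had the largest rises in Control gRNA neurons. WARS held 86.4, 86.8, 87.2 and 82.0 CPM in untreated WT and 140, 140, 136 and 153 CPM after vincristine (0.73 ± 0.06). In Control gRNA neurons it held 209, 200, 193, 204 and 196 CPM untreated and 291, 300, 297, 289 and 275 CPM treated (0.54 ± 0.04). IARS held 212, 208, 209 and 186 CPM in untreated WT and 259, 262, 267 and 335 CPM treated, where replicate 4 was the highest, a rise of 0.46 ± 0.06 that was 0.36 ± 0.06 without replicate 4. Its Control gRNA libraries held 314.5, 293, 307, 291 and 308 CPM untreated and 487, 471, 466, 447 and 443 CPM treated (0.61 ± 0.03). No treated library of either gene was as low as an untreated one. WARS shares 10.6% of its exon bases with genes on the opposite strand, and the strand setting of the counting is not given in the sources used here.

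**Figure D1:**
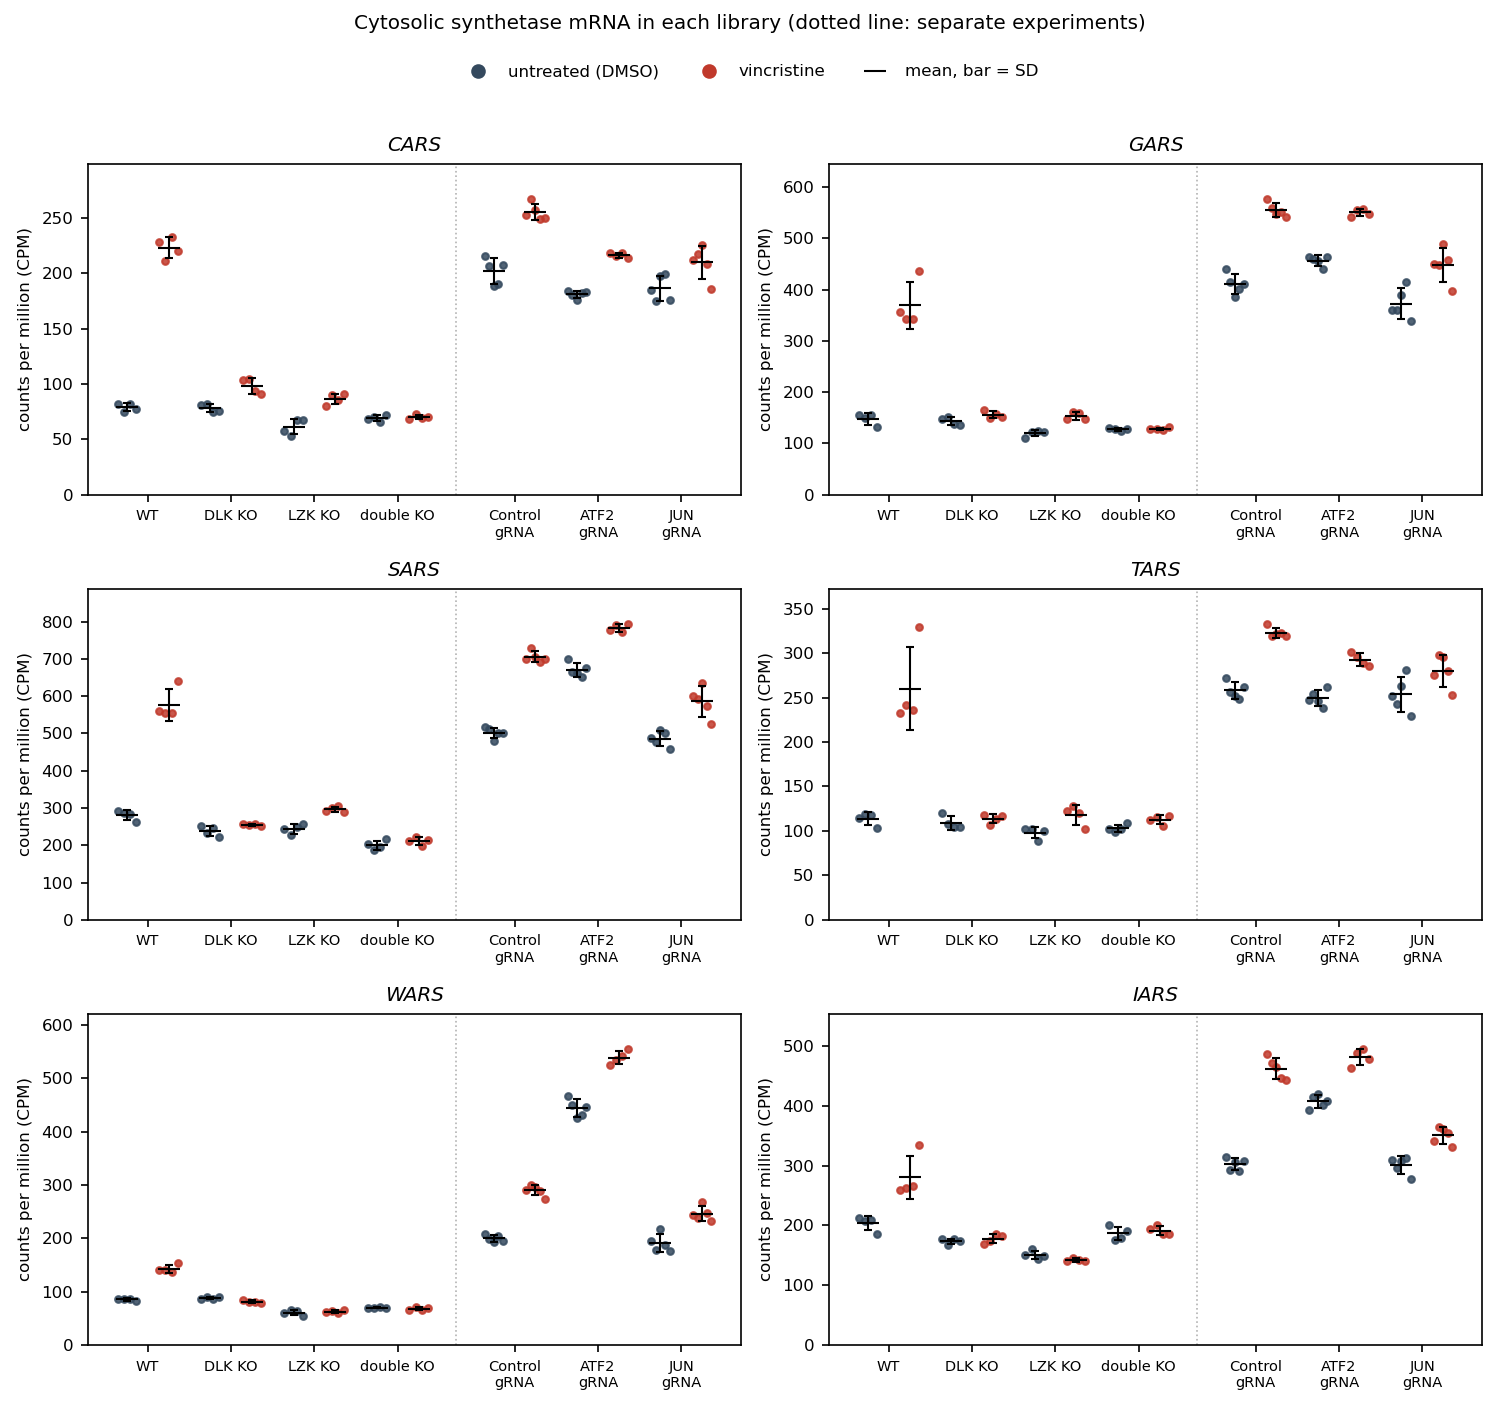
CPM (y axis, linear from 0) of the 6 cytosolic genes with the largest mean change, 1 point per library, in the 14 groups (x axis), with the group mean and SD as bars. CARS rises from 74.7 to 82.0 CPM to 211 to 233 CPM in WT, while its double KO points lie at 65.9 to 73.2 CPM in both groups, and WARS starts near 444 CPM in untreated ATF2 gRNA neurons.

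The other 6 cytosolic genes called higher in WT were AARS (alanine, 0.94 ± 0.07), YARS (tyrosine, 0.92 ± 0.07), MARS (methionine, 0.81 ± 0.06), EPRS (0.46 ± 0.07), NARS (asparagine, 0.26 ± 0.09) and LARS (leucine, 0.25 ± 0.07). Without WT vincristine replicate 4, AARS was 1.04 and EPRS 0.35. AARS averaged 134 ± 1.85 CPM untreated and 258 ± 40.5 treated, YARS 72.9 ± 2.66 and 138 ± 6.06, and MARS 131 ± 4.70 and 230 ± 3.89 (SD, n = 4). MARS shares 12.4% of its exon bases with ARHGAP9 and DDIT3 on the opposite strand, and DDIT3 itself went from 12.4 ± 2.31 to 110 ± 22.0 CPM in the same libraries. The part of DDIT3 reads in the MARS count was not tested. Of the 8 cytosolic genes not called higher, FARSA, the alpha subunit of the phenylalanine enzyme, was called lower (-0.38 ± 0.09, and -0.27 without WT vincristine replicate 4). KARS, the lysine enzyme, was also called lower (-0.19 ± 0.07), but not in 8 of the alternative fits, among them those without WT vincristine replicate 1 (-0.12). FARSB, the partner of FARSA, and VARS, DARS, HARS, QARS and RARS were not called.

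The 12 members that rose in WT were all among the 13 cytosolic genes often listed as ATF4 targets, a list taken from general knowledge with earlier results of these data known. The median log2 fold change of the 13 was 0.81, and VARS was the member that was not called (-0.25, and -0.05 without WT vincristine replicate 4). Of the other 7 cytosolic genes none rose and 2 fell (median -0.09). The promoters of the members that moved together were therefore read from the RefSeq table (GRCh38.p14; 250 bases before to 50 after each listed start), which held 45 windows for 33 of the 39 members; AARS2, DARS, LARS, VARS, VARS2 and YARS had none. The letters TGATGNAA, a composite C/EBP-ATF motif that ATF4 can bind with a C/EBP partner, were searched on both strands. They occurred in 7 of the 16 cytosolic genes with a window (AARS, CARS, GARS, IARS, MARS, NARS and TARS), in 1 of 14 mitochondrial genes (YARS2), in 0 of 3 scaffolds and in 4.46% of all 27305 genes in that table. All 7 cytosolic genes with the letters were called higher in WT, as were SARS, WARS and EPRS, whose windows do not hold them. A list of 20 other genes of the ATF4 response, described below, was searched as well. All 20 rose in WT, 16 of them had a window, and 3 of those 16 (18.8%) held the letters. The 4 stretches below are shown because CARS, GARS and TARS hold the letters near their start and SARS, which rose about as much, does not. Each runs from 140 bases before the start to base 10 after it, and capitals mark the match, here on the minus strand of the gene. The first base of the match was at -2 in CARS, -33 in GARS and +3 in TARS, counted from the start as +1.
CARS, chr11:3057414-3057563, minus strand: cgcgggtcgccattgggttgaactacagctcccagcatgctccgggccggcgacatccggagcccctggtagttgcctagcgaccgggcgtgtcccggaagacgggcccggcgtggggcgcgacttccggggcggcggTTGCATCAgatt
GARS, chr7:30594738-30594887, plus strand: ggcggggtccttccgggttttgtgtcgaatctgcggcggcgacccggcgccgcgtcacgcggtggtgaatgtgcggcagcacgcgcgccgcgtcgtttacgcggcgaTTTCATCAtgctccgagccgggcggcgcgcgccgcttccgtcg
TARS, chr5:33440825-33440974, plus strand: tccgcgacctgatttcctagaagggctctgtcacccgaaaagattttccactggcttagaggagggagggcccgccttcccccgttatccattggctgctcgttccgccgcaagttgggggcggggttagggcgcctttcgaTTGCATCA
SARS, chr1:109213778-109213927, plus strand: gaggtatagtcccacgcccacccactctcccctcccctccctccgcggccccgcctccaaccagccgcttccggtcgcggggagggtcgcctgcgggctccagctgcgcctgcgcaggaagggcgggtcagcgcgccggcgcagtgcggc

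The matches in IARS, MARS and NARS lay within 20 bases of a start (first base at -13, -4 and +15), and that of AARS at -187. The cAMP response element TGACGTCA, which ATF2 and its partners can bind, was found in AIMP2 (at -69) and in no other of the 33 members, beside 2.25% of all genes. The AP-1 letters TGANTCA, bound by JUN with FOS partners, were found in 0 of the 33 members and in 9.37% of all genes. The letters were searched on both strands, the motifs can share bases, and no member held more than 1 of them. These counts describe short windows and say nothing of binding.

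Of the 16 mitochondrial genes, 1 was called in WT with all libraries. MARS2, the mitochondrial methionine enzyme (chr2:197705369-197708387), was called lower. It held 5.53, 9.39, 8.05 and 5.45 CPM in untreated WT and 5.96, 4.21, 5.20 and 4.62 CPM after vincristine, groups that overlap, for a log2 fold change of -0.52 ± 0.17 (adjusted p = 0.0159). The call was lost without WT untreated replicate 2 (-0.36), WT untreated replicate 3 (-0.45) or WT vincristine replicate 2 (-0.43). With Control gRNA, MARS2 held 15.4, 15.8, 13.95, 16.1 and 14.9 CPM untreated and 11.0, 10.3, 11.1, 10.7 and 8.62 CPM treated, a fall of 0.55 on the log2 scale with no overlap. The other 15 mitochondrial genes lay between -0.19 and 0.30 in WT (log2 fold change), with WARS2 the highest. Without WT vincristine replicate 4, 3 mitochondrial genes were called lower: MARS2, RARS2 (-0.34, adjusted p = 0.00282) and IARS2 (-0.19).

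Of the scaffolds, which hold the multisynthetase complex together, AIMP2 and EEF1E1 fell in WT and AIMP1 did not pass the test. AIMP2 (chr7:6009245-6023834) held 19.1, 21.0, 18.7 and 16.5 CPM in untreated WT and 11.4, 12.2, 11.4 and 12.3 CPM after vincristine, a log2 fold change of -0.67 ± 0.12 (adjusted p = 2.37e-05) with no overlap. EEF1E1 (chr6:8073360-8102578) held 13.2, 12.4, 12.2 and 9.91 CPM untreated and 5.05, 6.19, 5.11 and 10.2 CPM treated. Replicate 4 was the treated library that reached the untreated range, and the log2 fold change was -0.86 ± 0.23 with it and -1.13 ± 0.23 without it. AIMP1 (chr4:106315544-106349226) held 26.9, 26.6, 25.4 and 19.7 CPM untreated and 17.5, 28.2, 20.5 and 31.9 CPM treated, and was not called (-0.01). In Control gRNA neurons AIMP2 went from 32.4, 30.8, 31.4, 32.7 and 32.6 CPM to 26.1, 28.5, 27.9, 26.7 and 24.4 CPM (-0.26 ± 0.06), and EEF1E1 from 14.2, 15.9, 13.4, 13.2 and 13.8 CPM to 10.9, 10.1, 9.51, 9.53 and 13.33 CPM (-0.40 ± 0.09), where the last treated library reached the untreated range. AIMP1 went from 14.5, 15.8, 19.0, 14.7 and 16.1 CPM to 20.4, 19.3, 18.4, 19.6 and 19.2 CPM (0.27 ± 0.09), with overlap. AIMP2 and EEF1E1 thus fell in both experiments. AIMP2 shares 28.9% of its exon bases with EIF2AK1 on the opposite strand (143 ± 6.12 CPM in untreated WT and 133 ± 5.085 treated), and EEF1E1 shares 18.7% with a read-through gene on its own strand.

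**Figure D2:**
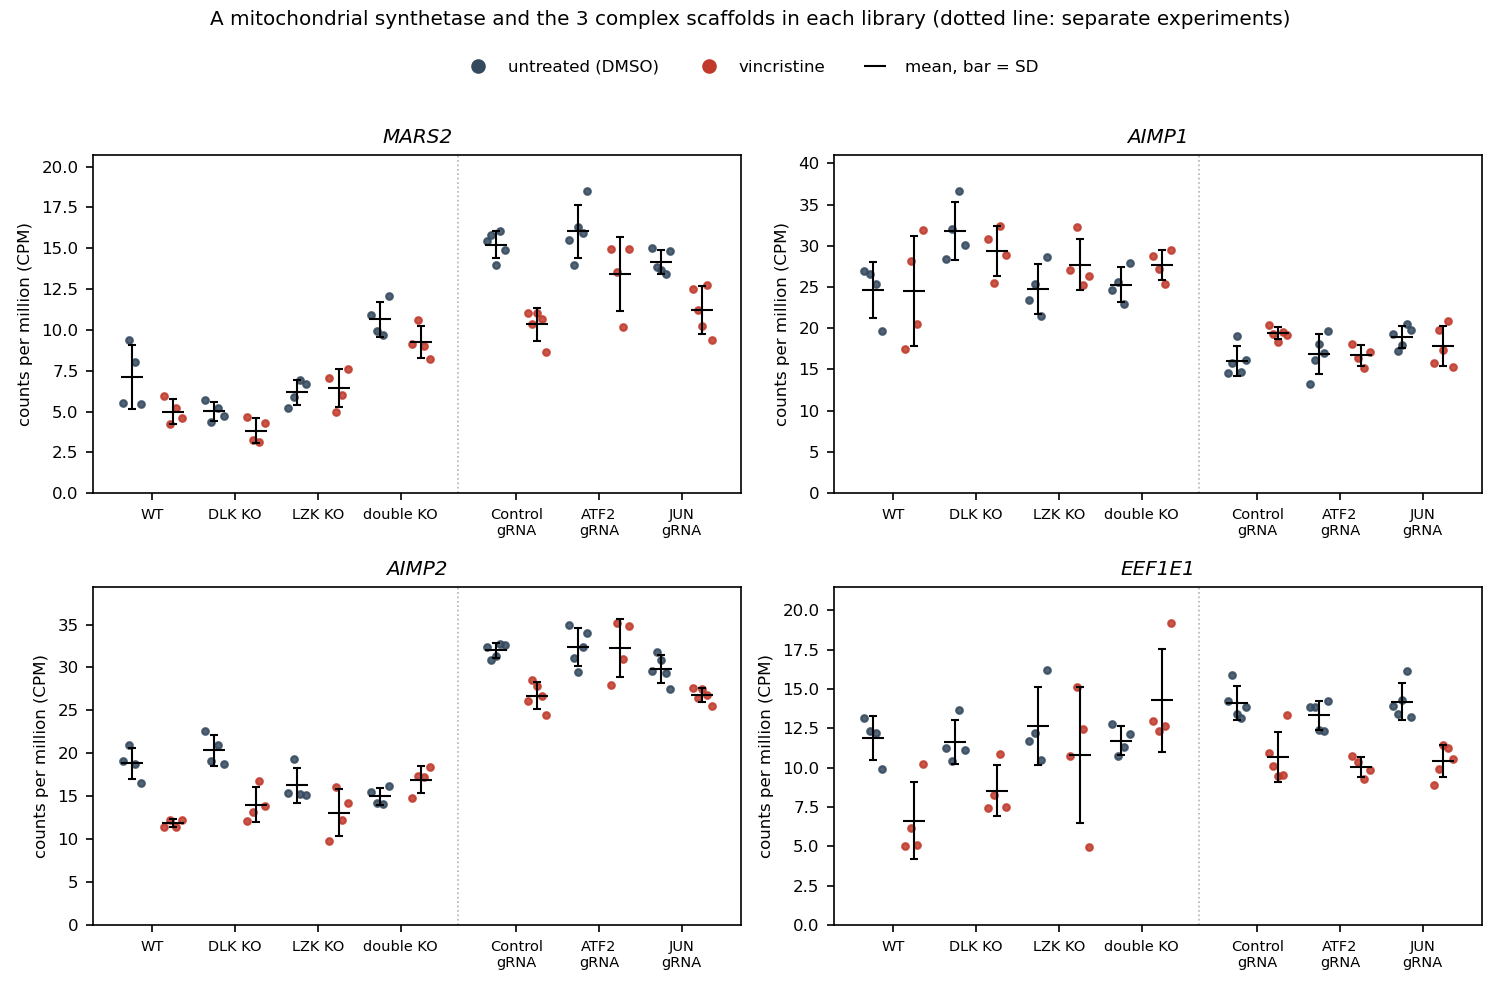
CPM (y axis, linear from 0) of MARS2 and the 3 scaffolds, 1 point per library in the 14 groups (x axis), with the group mean and SD as bars. AIMP2 drops from 16.5 to 21.0 CPM to 11.4 to 12.3 CPM in WT, and in double KO its treated points reach 18.4 CPM.

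The rise of the cytosolic enzymes was small or not detected in the knockout lines. In DLK KO neurons vincristine changed 3 members: CARS rose (0.32 ± 0.07), MARS rose (0.22 ± 0.06) and AIMP2 fell (-0.54 ± 0.11), so that 2 rose and 1 fell beside 4.24% of all genes called higher and 2.28% called lower. In LZK KO neurons 5 members rose and 0 fell, beside 2.27% and 1.61% of all genes: CARS (0.49 ± 0.07), GARS (0.36 ± 0.07), SARS (0.28 ± 0.06), QARS (0.28 ± 0.07) and AARS (0.27 ± 0.08). In double KO neurons 0 members were called in either direction by edgeR and by DESeq2, beside 0.00548% of all genes called higher and 0.0603% called lower. At an unadjusted p under 0.05 there were 2 members by edgeR and 1 by DESeq2, none of them higher, and all 39 log2 fold changes lay between -0.22 and 0.28. A fit of the compared groups alone called 7, 2 and 1 members in the DLK, LZK and double knockouts, in that order.

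The libraries show this gene by gene. CARS held 81.4, 82.1, 74.7 and 75.6 CPM in untreated DLK KO and 104, 104, 93.8 and 91.0 CPM treated. In LZK KO it held 57.7, 53.4, 67.2 and 67.8 CPM untreated and 80.3, 90.1, 85.2 and 90.6 CPM treated, and in double KO 68.5, 70.2, 65.9 and 71.9 CPM and 68.5, 73.2, 69.3 and 70.4 CPM. Treated and untreated groups were apart in both single knockouts and overlapped in double KO. GARS held 130, 128, 123.5 and 128 CPM in untreated double KO and 128, 128, 127 and 131 CPM treated, and SARS held 203, 188, 195 and 216 CPM and 210, 221, 197 and 215 CPM. Both genes overlapped there, while in LZK KO their treated and untreated libraries were apart.

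The difference from WT was tested directly as an interaction, and the 3 such tests share the WT libraries. Lower and higher here refer to the signed log2 value, so a smaller fall counts as a higher effect. In DLK KO the vincristine effect was lower than in WT for 12 members and higher for 2, beside 9.4% and 9.95% of all genes. The 2 were FARSA (0.50 ± 0.13) and VARS (0.64 ± 0.23, a call lost in 14 of 22 alternatives). FARSA was called lower in WT, and neither gene was called in DLK KO. Without WT vincristine replicate 4 the effect was lower for 10 members and higher for 3 (FARSA, 0.40, VARS, 0.44, and KARS, 0.25). In LZK KO it was lower for 10 and higher for 0, beside 6.53% and 5.88%. Without WT vincristine replicate 4 it was higher for 2 there (KARS, 0.30, and EEF1E1, 0.92). In double KO it was lower for 10 and higher for 4, beside 10.2% and 9.21%. With all libraries, the members with a lower effect were cytosolic in each test. For CARS the difference was -1.17 ± 0.09 with DLK KO, -1.004 ± 0.09 with LZK KO and -1.47 ± 0.09 in the double knockout, and for GARS it was -1.201 ± 0.09, -0.96 ± 0.09 and -1.31 ± 0.09. Of the 12 genes that rose in WT, LARS differed from WT in none of the 3 tests and NARS in DLK KO only (-0.39 ± 0.13, and not without WT vincristine replicate 4, -0.23). The effect was higher in double KO than in WT by 0.85 ± 0.16 for AIMP2 and 1.14 ± 0.31 for EEF1E1 on the log2 scale. KARS (0.29) and FARSA (0.35) were called in the same direction, though these last calls were lost in 14 and 15 of 22 alternatives. These 4 genes were called lower in WT and not in double KO, so their effect there was less negative. No mitochondrial gene differed from WT in the 3 tests with all libraries. Without WT vincristine replicate 4, RARS2 was called in the double knockout (0.44, adjusted p = 0.00626), and without WT vincristine replicate 2, 2 mitochondrial genes had a lower effect in LZK KO. Between double KO and DLK KO, 1 member had a higher effect and 0 a lower one, beside 0.126% and 1.01% of all genes: AIMP2 (0.72 ± 0.16), a call lost without DLK KO vincristine replicate 1 (0.66). When only those 4 groups were fitted, 11 members differed between the 2 lines.

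**Figure D3:**
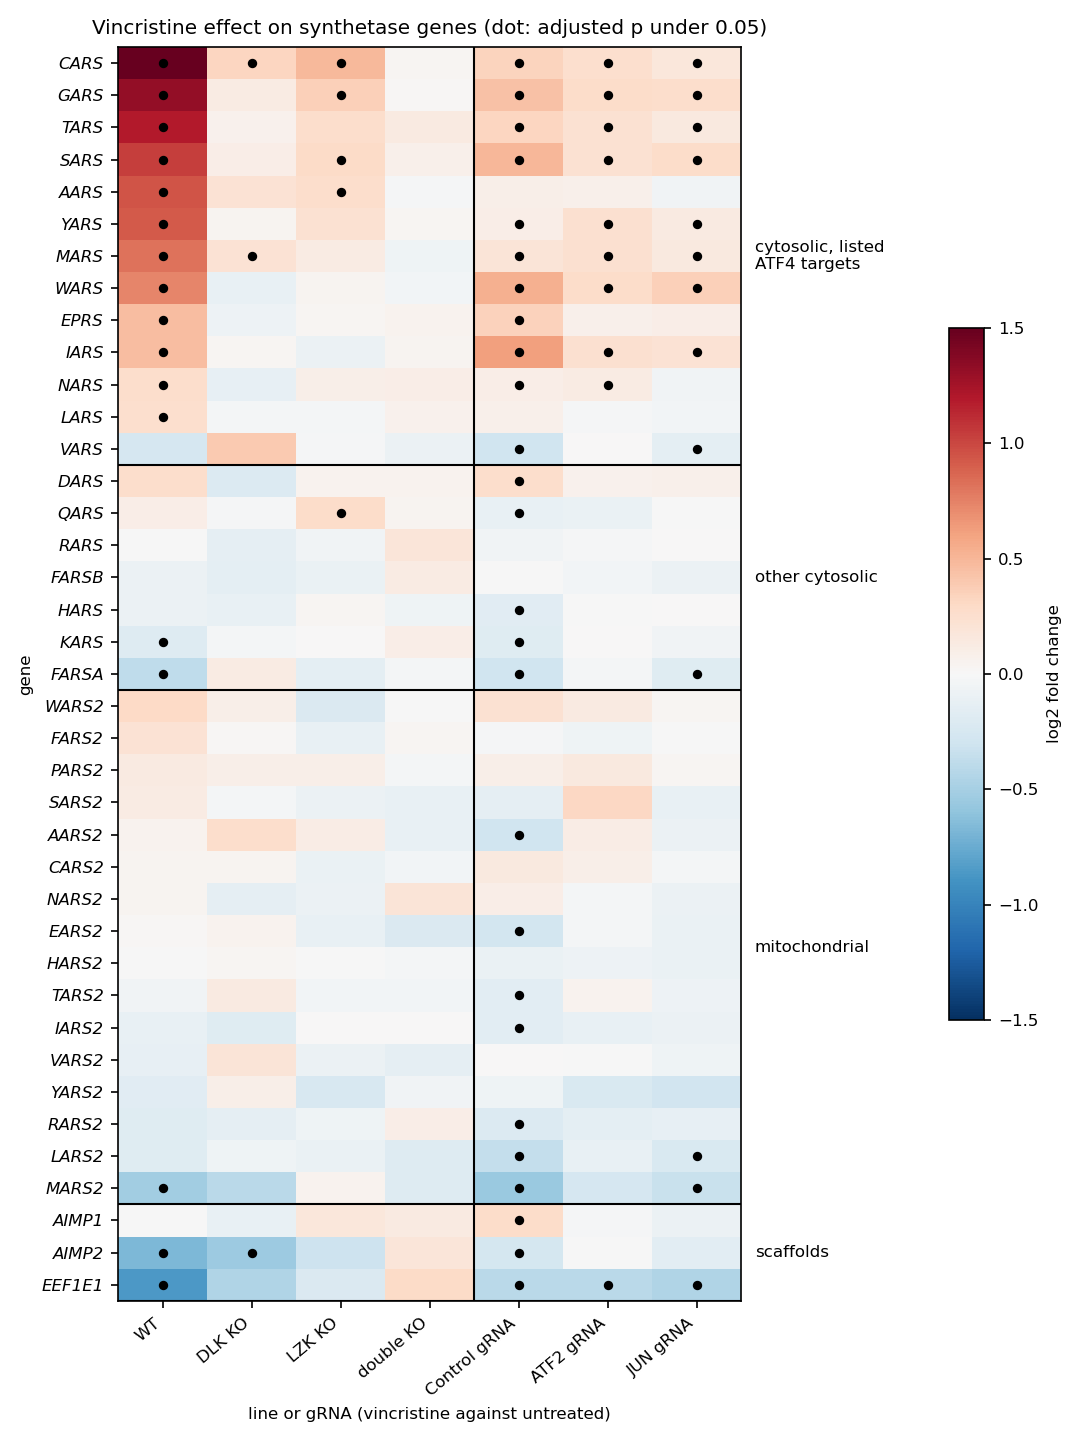
Log2 fold change of vincristine against untreated (colour) for the 39 genes (rows, by class and ordered by the WT value) in the 7 lines or gRNAs (columns), with a dot where the adjusted p is under 0.05. In WT the 12 genes called higher are all in the cytosolic block, the double KO column has no dot, and the mitochondrial rows hold 10 dots, all on genes called lower.

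In experiment 2, vincristine raised 11 of the 20 cytosolic genes and lowered 7 of the 16 mitochondrial genes in Control gRNA neurons. In all, 12 members rose and 14 fell, beside 17.1% of all genes called higher and 18.1% called lower. The risers were 11 cytosolic genes and AIMP1, and the 14 that fell were 5 cytosolic genes, 7 mitochondrial genes and 2 scaffolds. The median log2 fold change was 0.10 for the cytosolic class and -0.12 for the mitochondrial class, beside 0.03 for all genes. EPRS (0.35 ± 0.04), DARS (aspartate, 0.26 ± 0.05), MARS (0.19 ± 0.04), NARS and YARS (0.10 each) completed the cytosolic risers. VARS, the valine enzyme (-0.30 ± 0.05), FARSA (-0.30 ± 0.06), KARS (-0.18 ± 0.03), HARS, the histidine enzyme (-0.17 ± 0.04), and QARS, the glutamine enzyme (-0.12 ± 0.04), fell. The mitochondrial genes that fell were MARS2, LARS2 (-0.36 ± 0.06), AARS2 (-0.30 ± 0.08), EARS2 (-0.27 ± 0.07), RARS2 (-0.20 ± 0.05), IARS2 (-0.16 ± 0.04) and TARS2 (-0.16 ± 0.06). AARS and LARS, which rose in WT, were not called (AARS went from 248 ± 8.16 to 263 ± 16.95 CPM; SD, n = 5). A total of 15 members were called in both WT and Control gRNA neurons, 10 higher and 5 lower in both, and 0 were called in opposite directions.

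With ATF2 repressed, 9 members rose and 1 fell after vincristine, beside 1.88% of all genes called higher and 4.22% called lower. The 9 were cytosolic, with log2 fold changes from 0.13 (NARS) to 0.28 (WARS), and EEF1E1 fell (-0.41 ± 0.10). With JUN repressed, 8 members rose and 5 fell, beside 7.58% and 8.31%: the 8 were cytosolic, from 0.13 (YARS) to 0.36 (WARS), and EEF1E1, MARS2, LARS2, FARSA and VARS fell. CARS held 184, 180, 176, 183 and 183 CPM in untreated ATF2 gRNA neurons and 218, 216, 218 and 214 CPM treated, which are apart. In JUN gRNA neurons it held 185, 175, 197, 199 and 176 CPM untreated and 212, 217, 226, 209 and 186 CPM treated, which overlap.

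The effect differed from that in Control gRNA neurons for some members, and these 2 tests share the Control gRNA libraries. In ATF2 gRNA neurons it was higher for 7 members and lower for 5, beside 10.2% and 10.4% of all genes. The 5 were IARS (-0.37 ± 0.05), SARS (-0.27 ± 0.05), EPRS (-0.27 ± 0.06), WARS (-0.26 ± 0.06) and GARS (-0.16 ± 0.06, adjusted p = 0.0495, a call that most alternatives lost). All 5 were already higher in untreated ATF2 gRNA than in untreated Control gRNA neurons, by 0.15 (GARS) to 1.15 (WARS). A lower effect therefore does not mean a lower level after vincristine. The cytosolic genes summed to 1078 to 1090 RPKM in treated ATF2 gRNA libraries and 982 to 1031 in treated Control gRNA libraries. The 7 with a higher effect (VARS, FARSA, KARS, HARS, AARS2, LARS2 and AIMP2) were among the genes that fell in Control gRNA neurons. The count of 7 was 4 without ATF2 gRNA untreated replicate 2 or 3, ATF2 gRNA vincristine replicate 4 or 5, Control gRNA untreated replicate 4 or Control gRNA vincristine replicate 1. Of the 12 calls, 6 held in every alternative fit. CARS, MARS, NARS, TARS, YARS and DARS rose in Control gRNA neurons and did not pass the test of the difference, which does not show that their effects were alike. In JUN gRNA neurons the effect was higher for 1 member (HARS, 0.18 ± 0.05) and lower for 9, beside 8.71% and 7.06% of all genes. The 9 were IARS (-0.39 ± 0.05), AIMP1 (-0.36 ± 0.13), EPRS, SARS, TARS, WARS, GARS, CARS and NARS. The count of 10 was 6 without Control gRNA vincristine replicate 2 and 5 without JUN gRNA untreated replicate 4 or JUN gRNA vincristine replicate 5. Between ATF2 gRNA and JUN gRNA neurons, 1 member had a higher effect (NARS, 0.19 ± 0.05) and 0 a lower one, beside 0.91% and 1.92% of all genes. DESeq2 gave the same count, and the NARS call was lost in 8 alternatives, 7 of which left out 1 library.

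Other genes of the same pathway give the setting of these values. A list of 20 other genes of this response held ATF4 itself and known ATF4 targets. All 20 rose in WT (median 2.15), 9 and 14 in the DLK and LZK single knockouts and 0 in the double knockout. SLC7A11, a cystine transporter, went from 3.74 ± 1.504 to 126 ± 19.6 CPM in WT, and ASNS, asparagine synthetase, from 5.60 ± 0.652 to 26.6 ± 2.80. In experiment 2, 18 rose and 1 fell in Control gRNA neurons (median 0.78), 18 rose in ATF2 gRNA neurons (0.45), and 12 rose and 1 fell in JUN gRNA neurons (0.30). ATF4 mRNA, counted in that list, rose in WT (1.09) and was the gene of the list that fell in Control gRNA neurons (-0.10). Among the 4 eIF2 kinase genes, EIF2AK3, which encodes PERK, rose in WT (1.88), DLK KO (1.57), LZK KO (1.75), Control gRNA (1.96), JUN gRNA (0.90) and ATF2 gRNA (0.22) neurons. In double KO 0 of the 4 were called, with log2 fold changes between -0.12 and -0.04. Of the 4, 2 rose and 1 fell in Control gRNA neurons. Of 16 tested genes for tRNA charging and delivery, which include elongation factors and the selenocysteine enzymes, 2 rose in WT, beside 15.7% of all genes: GATB (0.34), a subunit of a mitochondrial amidotransferase, and PSTK (0.71), a kinase of selenocysteine synthesis. In Control gRNA neurons 5 rose and 3 fell, beside 17.1% and 18.1% of all genes.

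**Figure D4:**
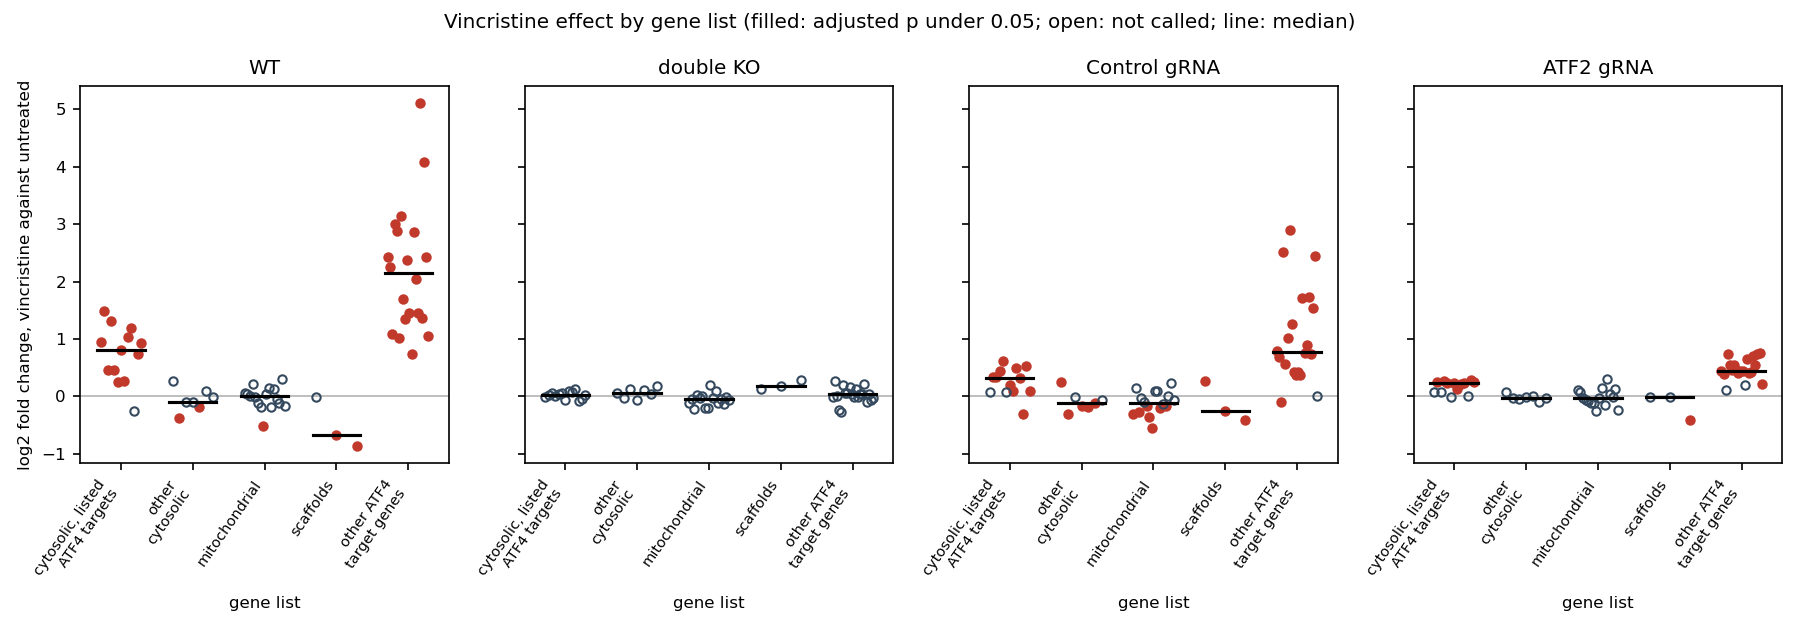
Log2 fold change of vincristine against untreated (y axis) by gene list (x axis) in WT, double KO, Control gRNA and ATF2 gRNA neurons, 1 point per gene, filled where called, with the median as a line. In WT the listed ATF4 targets among the cytosolic synthetases centre on 0.81. The list of other ATF4 target genes, which includes ATF4 itself, centres on 2.15 in WT, and in double KO every point is open.

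Before any vincristine, several synthetase genes already differed between the lines. In DLK KO against WT, 2 members were higher and 12 lower, beside 16.5% and 17.9% of all genes. In LZK KO, 5 were higher and 14 lower, beside 17.1% and 16.8%, and in double KO, 3 were higher and 17 lower, beside 23.6% and 22.1%. The counts of higher members rest on single libraries: that in LZK KO was 0 without WT untreated replicate 4, 1 without LZK KO untreated replicate 1, 2 or 4, 2 without WT untreated replicate 2 and 3 without WT untreated replicate 3, and that in DLK KO was 0 without WT untreated replicate 4 and 1 without DLK KO untreated replicate 3. The 3 comparisons share the untreated WT libraries. FARSB (-1.18 ± 0.11), DARS (-0.90 ± 0.11) and LARS (-0.89 ± 0.07) were the lowest in DLK KO. EARS2 (-0.93 ± 0.10), NARS (-0.90 ± 0.10) and YARS (-0.58 ± 0.07) were the lowest in double KO, where MARS2 (0.57 ± 0.15) and KARS (0.48 ± 0.07) were higher. YARS (-0.50 ± 0.07), WARS (-0.49 ± 0.06) and AARS (-0.45 ± 0.08) were the lowest in LZK KO. Of the 13 listed ATF4 targets, 5, 9 and 8 were lower in the DLK, LZK and double knockouts, in that order, and 0 were higher.

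Some of the lowest values lay where many genes of the chromosome were lower. For FARSB, the median log2 difference of the 52 genes within 5 Mb (mean log2 CPM of at least 1) was -0.97 in DLK KO. For DARS, on the same chromosome 2, the 22 neighbours had a median of -0.81, and for LARS, on chromosome 5, the 93 neighbours had -0.64. MARS2, also on chromosome 2, was -0.51 ± 0.17 with neighbours at -0.88. In double KO, NARS on chromosome 18 had 22 neighbours with a median of -1.005, and EARS2 on chromosome 16 had 63 with -0.94, while LARS was -0.22 beside neighbours at 0.61. VARS, singled out after its value was seen, was -0.74 ± 0.16 in DLK KO with neighbours at -0.03, and in LZK KO no member's neighbours were beyond -0.18 or 0.21. What these shared differences come from was not tested.

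**Figure D5:**
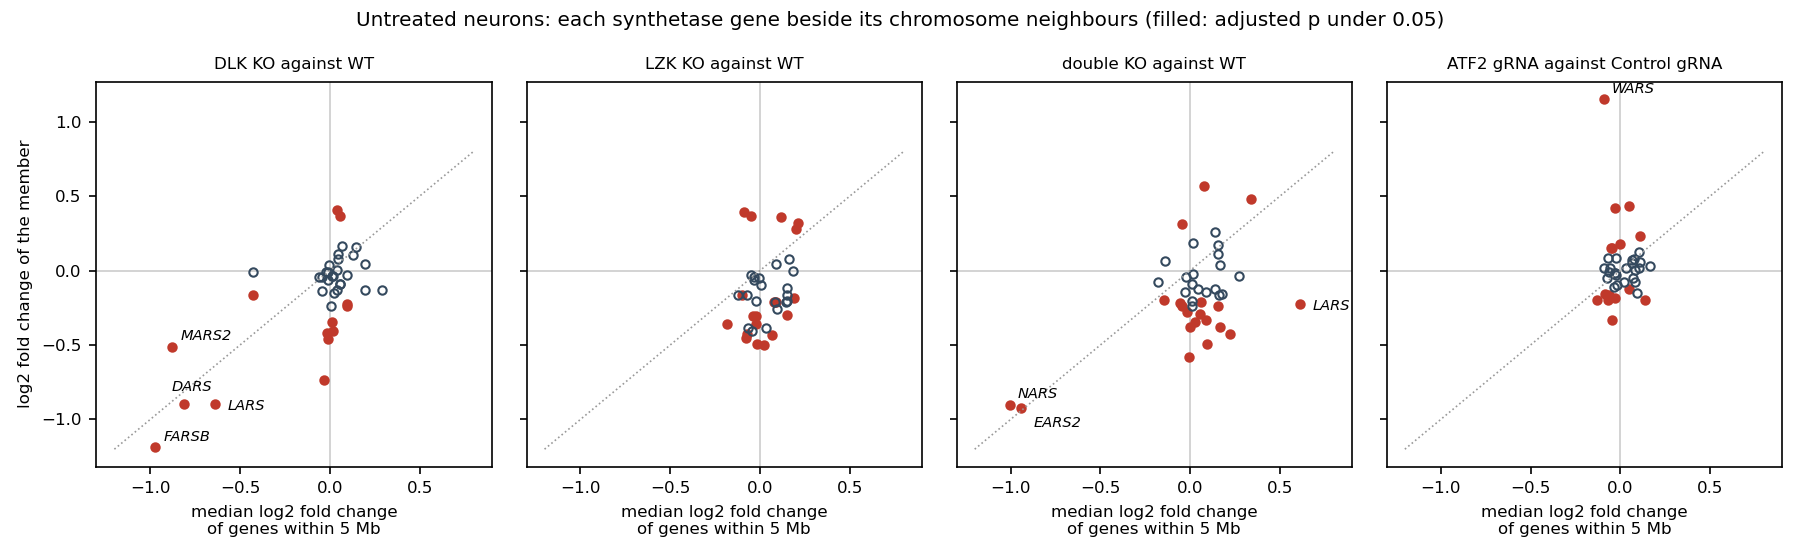
Log2 difference of each of the 39 genes (y axis) against the median log2 difference of the genes within 5 Mb of it (x axis), for untreated DLK KO, LZK KO and double KO against WT and ATF2 gRNA against Control gRNA, with filled points where called and a dotted line of equality. FARSB, DARS, LARS, NARS and EARS2 lie near the line at negative values, and WARS stands at 1.15 with neighbours at -0.09.

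In untreated ATF2 gRNA neurons 7 members were higher and 8 lower than in Control gRNA, shares of the 39 near the 19.7% and 20.2% of all genes. WARS had the largest difference of the members, at 468, 450, 426, 432 and 446 CPM, against 193 to 209 CPM in Control gRNA, a log2 difference of 1.15 ± 0.04 (adjusted p = 8.8e-27). The untreated ATF2 gRNA libraries thus held more WARS than the vincristine-treated Control gRNA libraries (275 to 300 CPM). IARS (0.43 ± 0.03) and SARS (0.42 ± 0.03) were also higher, with no overlap between groups, as were EPRS, MARS, YARS and GARS (0.15 to 0.23). CARS (-0.16 ± 0.04), AARS (-0.16 ± 0.04), QARS and LARS were lower, as were the mitochondrial VARS2 (-0.33 ± 0.05), LARS2, IARS2 and TARS2. VARS2 shares 22% of its exon bases with GTF2H4 on its own strand, so its value is uncertain. DDIT3, an ATF4 target that encodes CHOP, was 113 ± 10.1 CPM in untreated ATF2 gRNA neurons and 19.5 ± 0.425 in Control gRNA (n = 5 each). MARS shares 12.4% of its exon bases with ARHGAP9 and DDIT3, and the part of DDIT3 reads in its higher count here was not tested. In untreated JUN gRNA neurons 0 members were higher and 4 lower (QARS, VARS, GARS and AARS, between -0.19 and -0.12), beside 5.78% and 5.46% of all genes, and the count of 4 was between 1 and 7 when 1 library was left out.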

How the data were processed

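PolyA-selected RNA from 61 libraries was sequenced. The authors deposited raw read counts per gene (GENCODE 29 identifiers) in a table per experiment; per the submitters' processing notes, cutadapt 3.4, STAR, featureCounts and Subread 2.0.1 were used with GRCh38. The strand setting and the treatment of marked duplicates are not given in the sources used here, so reads of overlapping genes may be shared. The members, whose rule uses no measured value, and the gene lists were drawn up with earlier results of these data known.

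Counts were tested with edgeR 4.0.16 in R 4.3.3 (quasi-likelihood, robust, TMM factors, filterByExpr by group, all groups of an experiment in 1 fit), which kept 18235 and 20759 genes. Adjustment was by Benjamini-Hochberg over all genes of a comparison, with calls under 0.05, and differences in effect were interaction contrasts. On simulated counts with 2-fold changes and the same spread set for every gene, the fit recovered 82.5% of changed genes for WT and 89.4% for Control gRNA. Recovery of smaller changes, such as many of those reported here, was not simulated. CPM and RPKM were computed from the deposited counts with TMM-scaled totals and summed exon lengths. Library totals limit the precision of genes with few reads. DESeq2 1.42.0, other scalings and filters, a replicate block, fits of the compared groups and leaving out each library were the alternatives. No 2 libraries agreed within sampling noise (lowest chi-square per degree of freedom 1.67 over 104 pairs). Values in every library are given for the 6 cytosolic genes, and up to 3 mitochondrial genes, of largest mean change among those called with the same sign in WT and Control gRNA, and for the scaffolds. Other genes are named where called in WT or Control gRNA, or among the 3 highest and 3 lowest calls elsewhere.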

Additional observations from a re-analysis of the deposited data

Results flagged for a closer look

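Of 140 groups of values tested (10 genes in 14 groups), 11 held a library far from the others of its group by Dixon's criterion, and chance gives about 1 in 20. WT vincristine replicate 4 was the highest for GARS (437 CPM), SARS (641 CPM), TARS (330 CPM) and IARS (335 CPM). WT untreated replicate 4 was the lowest for WARS (82.0 CPM) and IARS (186 CPM), and was the lowest of its group for 29 of all 39 members. In untreated LZK KO, replicate 1 was low for GARS (111 CPM), replicate 3 low for TARS (88.7 CPM) and replicate 2 high for AIMP2 (19.3 CPM). TARS was high in Control gRNA vincristine replicate 1 (333 CPM), and EEF1E1 in double KO vincristine replicate 4 (19.2 CPM).

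The vincristine effect differed between lines by the interaction test for 14 members in DLK KO against WT, 10 in LZK KO against WT, 14 in double KO against WT and 1 in double KO against DLK KO. It differed for 12 members in ATF2 gRNA against Control gRNA neurons, 10 in JUN gRNA against Control gRNA and 1 in ATF2 gRNA against JUN gRNA.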

How the results depend on the processing

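Of 3613 alternative values of the 208 called member values, 3263 kept direction and call, 350 lost the call and 0 turned direction. Counts of called members outside 1.5 times the reported count were these. When only the compared groups were fitted, the count was 7 in DLK KO (3 reported), 2 in LZK KO (5), 1 in double KO (0) and 11 for the difference of double KO from DLK KO (1). Without the filter it was 3 in LZK KO, 0 between ATF2 gRNA and JUN gRNA (1) and 2 in untreated JUN gRNA (4). Between double KO and DLK KO it was 2 by DESeq2 and 2 with a filter at a mean of 1 CPM. Leaving out 1 library gave 3 to 6 in LZK KO, 0 to 1 between double KO and DLK KO, 5 to 11 between JUN gRNA and Control gRNA, 0 to 1 between ATF2 gRNA and JUN gRNA, and 1 to 7 in untreated JUN gRNA. The causes were not tested. Over all genes, DESeq2 moved the share of higher calls between double KO and DLK KO from 11.1% to 21.7%. Whether the replicate numbers shared by the groups pair the libraries is not stated in the labels and was not settled. Same-numbered deviations correlated between -0.685 and 0.527 (median 0.0861), and 15 of 30 pairs were over 0.1. Of 104 pairs with different numbers, 31 were over 0.1 (median -0.0534). In experiment 2 the same-numbered pairs lay between -0.0231 and 0.527. With the replicate block, all 19 counts stayed within 1.5 times, and of 208 values 197 kept their call and 11 lost it. Small changes of genes with few reads may not be detectable at this depth.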

Other observations

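Within the cytosolic class, the 8 enzymes of the multisynthetase complex and the 12 enzymes outside it were also counted apart. In WT neurons 4 complex enzymes rose and 1 fell (median log2 fold change 0.26), while 8 of the others rose and 1 fell (median 0.83). Of all genes, 15.7% were called higher and 14.5% lower in WT. In Control gRNA neurons 4 rose and 2 fell (0.14) against 7 and 3 (0.10), beside 17.1% and 18.1% of all genes, so the order of the medians in WT was not seen there. By fold of the catalytic domain, 6 of 9 class I enzymes rose in WT and 0 fell (0.46), and 5 of 10 class II enzymes rose and 2 fell (0.26). The difference between these lists was not tested.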
